A study of Oncorhynchus mykiss with 6 samples.

Results

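The microRNAs miR-203 and miR-205, each held as an a and a b paralog, were followed in small RNA libraries from the head kidney of 6 female rainbow trout (Oncorhynchus mykiss) aged 1 year. All rows that carry either family's number in Atlantic salmon (ssa) nomenclature were taken, which gave 8 of the 1381 rows of the count table, 4 per family. Nearly all their counts lay in ssa-miR-203a-3p, ssa-miR-203b-3p, ssa-miR-205a-5p and ssa-miR-205b-5p, given below without the prefix. The control group comprised 3 fish at 18 °C and the heat-treated group 3 fish at 24 °C; each fish gave 1 library, and the labels name no other treatment, no strain and no duration of heating. Whole head kidney was used, so fewer cells of a type and less of a miRNA per cell cannot be told apart.

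MicroRNAs are short RNAs that guide repression of mRNAs matching their 5′ seed. In mammals miR-203 is known from stratified epithelium such as skin, where it restrains the stem cell factor p63 and favours differentiation. In mammals miR-205 is also an epithelial miRNA, and together with the miR-200 family it represses the transcription factors ZEB1 and ZEB2, which drive loss of epithelial character. By the naming convention for miRNAs, letters such as a and b mark closely related mature sequences, and the suffixes 5p and 3p mark the arm of the hairpin. The head kidney of teleosts is a blood-forming and immune organ that also holds endocrine cells and, to a varying extent, kidney tubules. The mature sequences and genomic positions of these miRNAs were not used here.

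Library totals ran from 3753036 to 5156793 counts, so that 3 counts were worth 0.582 to 0.799 CPM (counts scaled to a common library total). Leukocyte miRNAs (miR-142, miR-150 and miR-155; 7 rows, 6 of them tested) summed to 9590 to 17031 CPM in the control and 13832 to 17472 CPM in the heat libraries, and the endothelial miR-126 to 81200 to 107154 and 87082 to 101990 CPM. The lowest leukocyte sum and the highest miR-126 sum both belonged to control replicate 2. Of 537 miRNAs with enough counts to be tested, edgeR's quasi-likelihood test called 1 higher at 24 °C (miR-499a-5p, named after its values were seen) and 0 lower, where 17 had an unadjusted p under 0.05 and DESeq2 called 3.

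In miR-203 1 arm carried nearly all counts, and in miR-205 1 arm carried most of them. Of the 8 rows, 5 had enough counts to be tested. The other 3 rows were miR-203a-2-5p and miR-203b-5p, with 0 to 2 counts per library, and miR-205a-2-3p, with 0 to 1, all at or under the floor of 3 counts. The 3p arm dominated in miR-203 and the 5p arm in miR-205. The 8 rows held no 3p arm of miR-205b, so the arm balance of that paralog could not be read. The rarer arm of miR-205a, miR-205a-3p, was measurable at 24 to 59 counts per library. It took 8.06% of both arms' counts in control replicate 2 and 12.6% in control replicate 3, the ends of its range. The exact binomial 95% intervals of these shares, 5.68% to 11.04% and 9.22% to 16.6%, overlapped. Their overlap is no test of a difference, and arm balance between fish was not tested. Such intervals cover counting error only.

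Paralog a was the more abundant in both families and in every library. Over the 6 fish, miR-203a-3p averaged 178 CPM, miR-205a-5p 80.3 CPM, miR-203b-3p 37.3 CPM and miR-205b-5p 19.8 CPM. All CPM given for single miRNAs are scaled by the trimmed mean of M-values (TMM) and hold no length term. These levels placed miR-203a-3p 110th and miR-205b-5p 189th among the 283 annotated miRNAs tested. Neighbours in this order overlapped between fish, except that every miR-203a-3p value lay above every miR-205a-5p value.

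miR-203a-3p stood at 199, 210.4 and 211 CPM in control replicates 1 to 3 and at 186, 143.8 and 117 CPM in heat replicates 1 to 3. The 3 control fish were close together, and each heat fish lay below all of them. miR-203b-3p, in contrast, stood at 66.5, 21.8 and 67.1 CPM in the control and at 18.5, 23.8 and 25.9 CPM in the heat fish. Control replicates 1 and 3 were high, while control replicate 2 lay among the heat fish, so the groups overlapped.

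miR-205a-5p stood at 77.5, 107 and 61.1 CPM in the control and at 107, 59.5 and 69.2 CPM in the heat fish. Control replicate 2 and heat replicate 1 were the high fish, 1 from each temperature, and the groups overlapped widely. miR-205b-5p stood at 38.5, 10.5 and 32.4 CPM in the control and at 3.09, 15.1 and 19.5 CPM in the heat fish. Here control replicates 1 and 3 were again the high fish, and the same control replicate 2 and heat replicate 1 that held the most miR-205a-5p held the least miR-205b-5p.

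**Figure D1:**
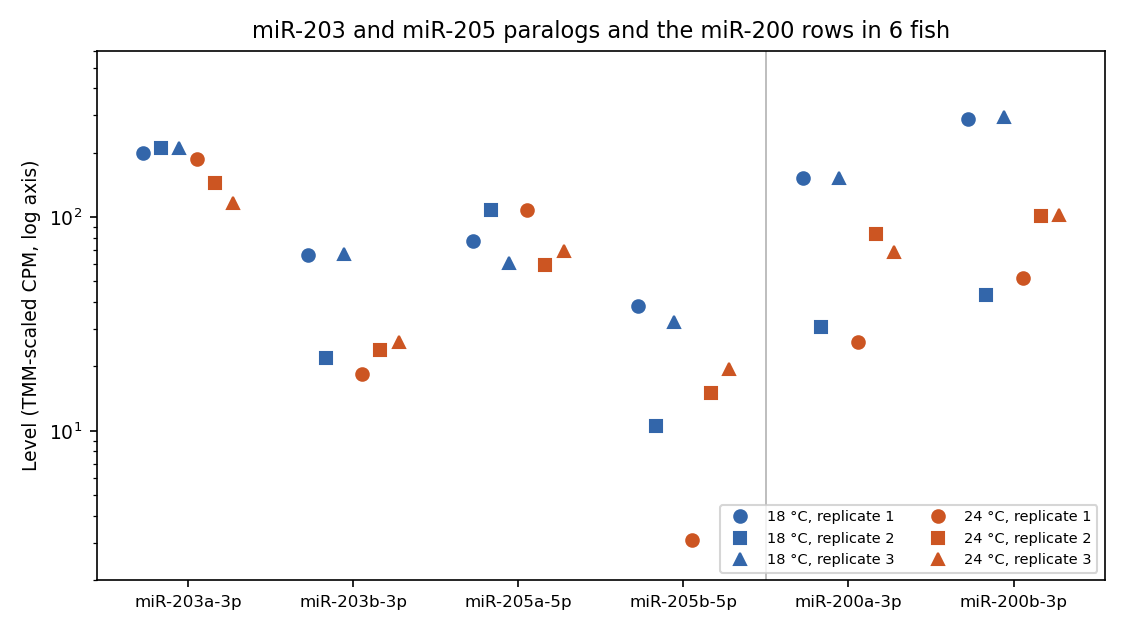
Level of each paralog, and of the miR-200 rows on the right, in every fish (TMM-scaled CPM, log axis; 1 point per fish, blue 18 °C, orange 24 °C, symbol by replicate). The b paralogs and the miR-200 rows are highest in control replicates 1 and 3, whereas miR-205a-5p is highest in heat replicate 1 and control replicate 2.

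Over the 6 fish of both temperatures together, the b paralogs varied more than the a paralogs. The highest library exceeded the lowest 1.81-fold for both miR-203a-3p and miR-205a-5p, but 3.62-fold for miR-203b-3p and 12.5-fold for miR-205b-5p. The coefficient of variation over the 6 fish was 21.9% for miR-203a-3p and 27.3% for miR-205a-5p. It was 61.7% for miR-203b-3p and 67.5% for miR-205b-5p, where counting error alone gives 8.88% and 14.5%. For reference, the 195 tested miRNAs with a mean of 10 to 200 CPM had a median of 30.1% (quartiles 20.96% and 48.9%). Both a paralogs thus lay below that median and both b paralogs above the upper quartile. These figures include any difference between the temperatures. Within the heat fish alone, miR-203b-3p ran from 18.5 to 25.9 CPM, a narrower range in proportion than that of miR-203a-3p (117 to 186 CPM). In miR-205 the b paralog kept the wider range there (3.09 to 19.5 CPM, against 59.5 to 107 CPM for miR-205a-5p).

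The split between paralogs was then read within each library, where the scaling between libraries cancels. In miR-203, paralog b gave 25.04% of the a plus b counts in control replicate 1 (exact binomial 95% interval 22.7% to 27.4%) and 24.1% in control replicate 3, but 9.39% in control replicate 2 (7.52% to 11.5%). In the heat fish it gave 9.05%, 14.2% and 18.2% in replicates 1 to 3. The control mean was 19.5% ± 8.78 and the heat mean 13.8% ± 4.59 (SD, n = 3 each). Of the 15 pairs of libraries, 12 had intervals that did not overlap, pairs within a temperature included. Such counts were made only for miR-203 and miR-205, so they do not show whether other families differ less.

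In miR-205 the split moved further. Paralog b gave 33.2% of the counts in control replicate 1 (29.4% to 37.1%), 8.90% in control replicate 2 (6.41% to 12.0%) and 34.7% in control replicate 3. In the heat fish it gave 2.79% in replicate 1 (1.60% to 4.50%), where only 16 of 573 counts were miR-205b-5p, 20.2% in replicate 2 and 22.0% in replicate 3. There were thus 1.88 miR-205a-5p counts per miR-205b-5p count in control replicate 3 and 34.8 in heat replicate 1. The control mean was 25.6% ± 14.5 and the heat mean 14.99% ± 10.6 (SD, n = 3 each), and 13 of 15 pairs of libraries had separate intervals.

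**Figure D2:**
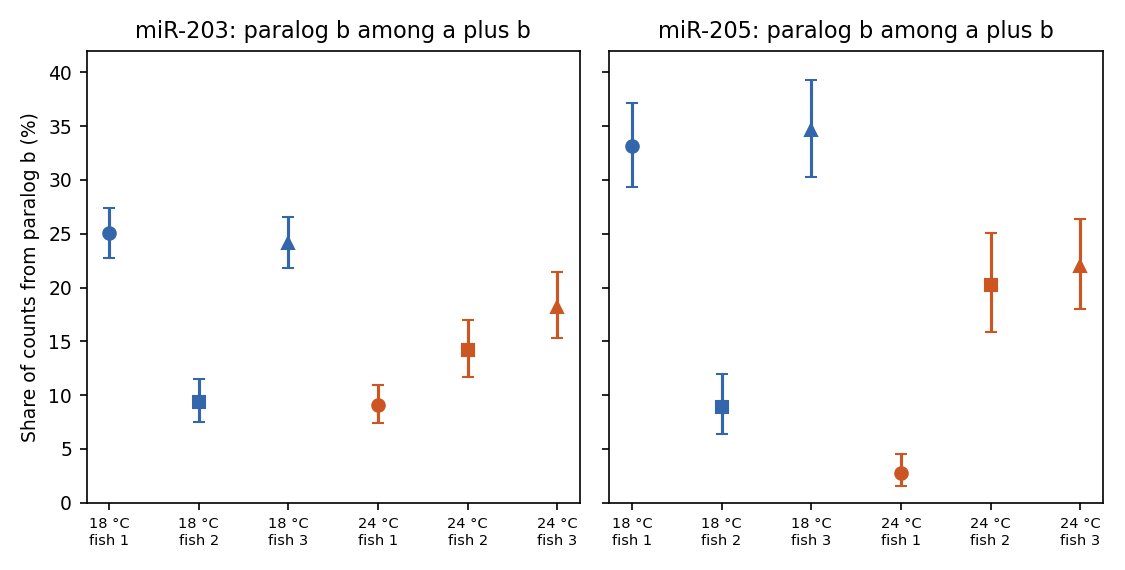
Share of paralog b among the a plus b counts of its family in each library (percent; bars are exact binomial 95% intervals, counting error only; blue 18 °C, orange 24 °C). In both families control replicates 1 and 3 have the highest shares and control replicate 2 and heat replicate 1 the lowest.

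The ratio of the paralogs differed between libraries in both families. Each fish gave 1 library, so differences between fish and between library preparations cannot be told apart. The SD of the log2 ratio of b to a over the 6 fish was 0.76 in miR-203 and 1.59 in miR-205, against 0.14 and 0.22 from counting error alone. The ratio ranged 3.34-fold and 18.0-fold. Among 46 a/b pairs of the same number and arm with at least 10 counts per row on average, the median SD was 0.34, and the SD exceeded counting error in 45 of the 46, so that an excess over counting error alone does not set these families apart. The miR-205 pair had the second highest SD, after miR-499-5p (2.13, named after its values were seen), and the miR-203 pair the ninth. Relative to counting error they stood 12th and 18th. The letters a and b do not mark equally close copies in every family, so this order is a description.

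**Figure D3:**
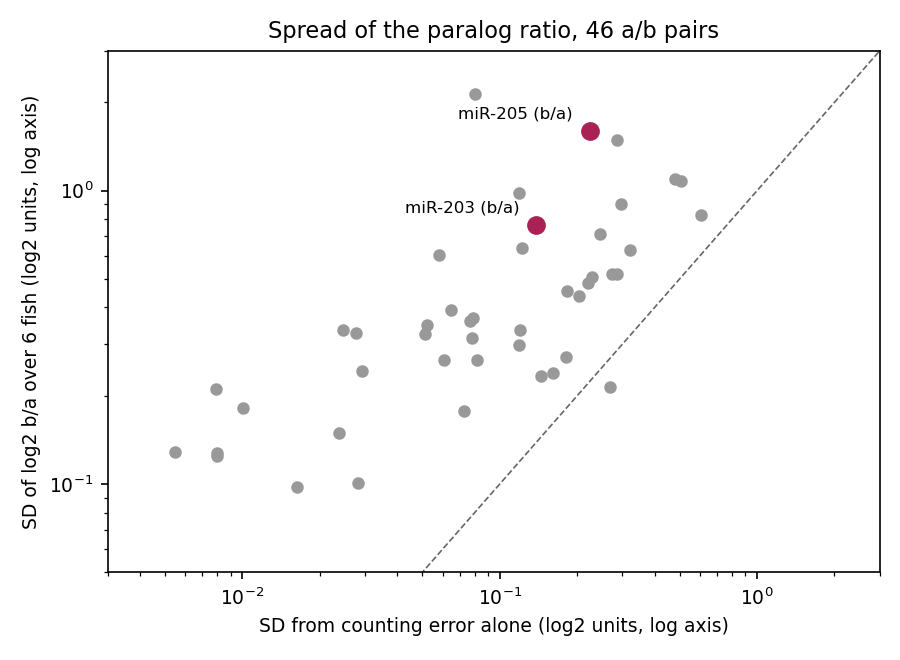
SD of the log2 ratio of paralog b to paralog a over 6 fish against the SD that counting error alone gives, for 46 a/b pairs (both in log2 units, log axes; 1 point per pair, dashed line where both are equal). The miR-205 pair lies at 1.59 against 0.22 and the miR-203 pair at 0.76 against 0.14.

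No correlation over fish is given for paralog a against b in either family. On the log2 scale miR-203b-3p fell into 2 high and 4 low fish with a gap of 0.73 of its range, and miR-205a-5p likewise into 2 and 4 with a gap of 0.55. By order, miR-203a-3p had the 3 control fish first, while miR-203b-3p ran from control replicates 3 and 1 through heat replicates 3 and 2 to control replicate 2 and heat replicate 1. miR-205b-5p had the same order as miR-203b-3p except that its first 2 fish were exchanged.

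The split moved together in the 2 families. The log2 ratio of b to a was -1.58, -3.26 and -1.65 in control replicates 1 to 3 and -3.32, -2.59 and -2.16 in heat replicates 1 to 3 for miR-203. For miR-205 it was -1.01, -3.34 and -0.91 in the control and -5.08, -1.97 and -1.82 in the heat fish. Over the 6 fish the 2 ratios had a Pearson r of 0.92 (two-sided exact permutation p = 0.0028, adjusted p = 0.019 over the 7 relations computed among these miRNAs) and a Spearman rho of 0.94 (exact permutation p = 0.017, adjusted 0.058). This relation was not planned and was chosen after the values were seen, which the adjustment does not account for. Without the 2 fish farthest from the median of the miR-203 ratio, heat replicate 1 and control replicate 2, r was 0.96 (exact permutation p = 0.083). The fish left were control replicates 1 and 3, higher in both ratios, and heat replicates 2 and 3. This r therefore largely restates the difference between 2 control and 2 heat fish. As deviations from the mean of each temperature group r was 0.91. Its permutation p of 0.057 shuffled all 6 fish across both groups, so it is not exact for this value. In miR-205 the deviations of control replicate 2 and heat replicate 1 lay far below those of the other fish. The r of the deviations therefore rests largely on these 2 fish. Each temperature alone holds too few fish for a value.

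**Figure D4:**
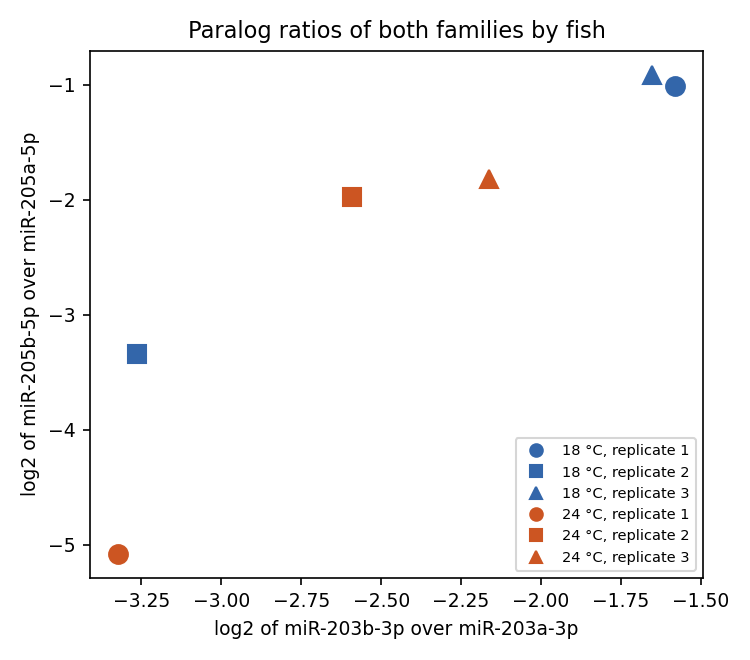
Log2 ratio of paralog b to a in miR-205 (y axis) against miR-203 (x axis), 1 point per fish (blue 18 °C, orange 24 °C, symbol by replicate). Control replicates 1 and 3 lie at the top right and control replicate 2 and heat replicate 1 at the lower left, so that fish of both temperatures are found at the low end.

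Of the other 44 a/b pairs, 1 had a ratio that followed that of miR-205 as closely, miR-24-3p (r = 0.93, named after its values were seen). The median r with the miR-205 ratio was -0.05. The miR-24-3p ratio also had r = 0.96 with the miR-203 ratio, above the 0.92 between miR-203 and miR-205. It moved little, however. Its SD over the 6 fish was 0.27 against 0.18 from counting error alone, 42nd of the 46 pairs relative to counting error. The median r with the miR-203 ratio was 0.06. The pairs share the libraries, so these values describe the 6 fish.

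Among the miRNAs ranked, both b paralogs had miR-200b-3p, of the miR-200 family, as their closest match. Among 131 annotated miRNAs of other families with a mean of at least 100 CPM, miR-200b-3p was the most similar to miR-203b-3p (r = 0.95 of log2 CPM over 6 libraries) and to miR-205b-5p (r = 0.86), followed for both by miR-30c-5p (0.94 and 0.83). The third was miR-146a-3-3p for miR-203b-3p (0.81) and miR-21b-3p for miR-205b-5p (0.77). The other tested miR-200 row, miR-200a-3p, averaged under 100 CPM and was therefore not ranked. It stood at 152, 30.7 and 152 CPM in the control and at 26.0, 83.5 and 68.9 CPM in the heat fish. Whether it was closer to the b paralogs than miR-200b-3p is not given. The a paralogs had other neighbours. The closest to miR-203a-3p were miR-10a-5p (0.94), miR-204-5p (0.89) and miR-145-3p (0.88), and those of miR-205a-5p were miR-16b-5p (0.89), miR-9a-5p (0.88) and miR-16a-5p (0.87). With 6 libraries and 131 candidates such values are a ranking and no test. Between their high and low fish, miR-203b-3p and miR-205a-5p had gaps of 0.73 and 0.55 of their log2 range. Their r values here therefore rest largely on which fish were high. miR-200b-3p was likewise high in control replicates 1 and 3.

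The miR-200 rows belong to the epithelial list (miR-200, miR-141 and miR-429), of which miR-141 had no ssa-named row in the count table. Its 6 rows, 2 of them tested and none at 0 throughout, summed to 449, 74.8 and 451.3 CPM in control replicates 1 to 3 and to 77.8, 187 and 174 CPM in heat replicates 1 to 3. Control replicates 1 and 3 were again high and control replicate 2 and heat replicate 1 low. miR-200b-3p itself stood at 289, 43.3 and 294 CPM in the control and at 51.7, 100.7 and 102 CPM in the heat fish. Since miR-200b-3p is the ranked row most like the b paralogs, the ratios to it restate that likeness in units of level. The amount of miR-203b-3p per miR-200b-3p lay within 0.228 to 0.503, a 2.21-fold range, while that of miR-203a-3p ran from 0.689 to 4.86, a 7.05-fold range. For miR-205b-5p the range was 4.06-fold (0.0597 to 0.242) and for miR-205a-5p 11.9-fold (0.207 to 2.48). The part of epithelial content in the paralog split was not tested.

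Of the other marker lists, that of striated muscle (miR-1, miR-133, miR-206 and miR-499; 11 rows) summed to 411 to 725 CPM in the control and 1137 to 2326 CPM in the heat fish. Of its 6 tested rows, 1 passed edgeR's test (miR-499a-5p), where 0.186% of all 537 miRNAs passed. The red cell miR-144 summed to 383 to 869.9 CPM and 405 to 3052 CPM, and the liver miR-122 to 5.30 to 81.6 CPM and 24.2 to 74.1 CPM. The nephron list (miR-192, miR-194 and miR-204) summed to 2115 to 2993 CPM in the control and 1763 to 2548 CPM in the heat fish. The sum was highest in control replicate 2 and heat replicate 1 within their groups. There miR-204-5p alone stood at 1821 and 1345 CPM, its highest value in each group. In heat replicate 2 the sum was 2373 CPM with miR-204-5p at 832 CPM. The rest of the list was thus higher there than in heat replicate 1, whose place rests on miR-204-5p. Of the 6 tested nephron rows 1 had a negative log2 fold change (median 0.34), so the sum does not show the direction of most rows. The gonad miR-202 summed to 12.2 to 87.6 CPM and 2.51 to 19.998 CPM. The sensory list (miR-183, miR-96 and miR-182) was lowest in control replicate 2 (68.1 CPM, with every other library between 116 and 222 CPM), and miR-375 with miR-7 stood at 28050 to 31513 and 30537 to 32297 CPM. The families miR-223, miR-208 and miR-451 had no ssa-named row in the count table. The part of these lists in the miR-203 and miR-205 values was not tested.

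The temperature contrast asks whether heat changed the levels of these miRNAs. None of the 5 tested rows passed edgeR's quasi-likelihood test with Benjamini-Hochberg adjustment over the 537 miRNAs, of which 0.186% passed in either direction, and 4 of the 5 had an unadjusted p above 0.05. All 5 estimates were negative, against 267 of all 537, and the median of all was 0.002.

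miR-203a-3p averaged 207 ± 6.77 CPM in the control and 149 ± 35.1 CPM in the heat fish (SD, n = 3 each). The estimated log2 fold change, 24 over 18 °C, was -0.47 ± 0.24 (SE), with a 95% interval of -1.03 to 0.08 and an edgeR adjusted p of 0.63. Its heat fish all lay below its control fish, as was the case for 5.96% of the 537 miRNAs. A two-sided exact permutation test of 3 against 3 cannot go below 0.1. miR-203b-3p had 51.8 ± 26.0 and 22.7 ± 3.81 CPM, with a log2 fold change of -1.19 ± 0.46 (95% interval -2.28 to -0.10; edgeR unadjusted p = 0.036, adjusted p = 0.63). That estimate rests on control replicates 1 and 3, since control replicate 2 lay below 2 of the 3 heat fish.

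miR-205a-5p averaged 82.0 ± 23.5 CPM in the control and 78.7 ± 25.4 CPM in the heat fish, with a log2 fold change of -0.06 ± 0.33 (95% interval -0.84 to 0.73; edgeR adjusted p = 0.99). miR-205b-5p had 27.1 ± 14.7 and 12.6 ± 8.49 CPM, with a log2 fold change of -1.12 ± 0.74 (95% interval -2.87 to 0.63; edgeR adjusted p = 0.73). Its interval covers both a drop to well under its control level and a rise. The rarer arm miR-205a-3p had 8.62 ± 0.895 and 8.34 ± 2.88 CPM (log2 fold change -0.04 ± 0.36; edgeR adjusted p = 0.996).

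Whether the b paralog responded differently from the a paralog was tested on the log2 ratio of b to a with limma over the 46 pairs, of which 0% passed and 8 had an unadjusted p under 0.05. In miR-203 the mean ratio was -2.17 ± 0.951 in the control and -2.69 ± 0.586 in the heat fish (SD, n = 3 each), a difference of -0.53 ± 0.55 (SE; 95% interval -1.90 to 0.84; limma adjusted p = 0.76). In miR-205 it was -1.75 ± 1.37 and -2.96 ± 1.84, a difference of -1.20 ± 1.11 (95% interval -3.96 to 1.55; limma adjusted p = 0.76). Both differences were smaller than the SD between fish of either temperature, and the intervals are wide.

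Reads that match both paralogs may be split between their rows in the authors' counting, so paralogs were also summed. The miR-203 sum averaged 259 ± 28.4 CPM in the control and 171 ± 28.4 CPM in the heat fish (SD, n = 3 each), and its 3 heat fish (201.8, 167 and 145 CPM) lay below its 3 control fish (272, 226 and 278 CPM). This separation was found in 6.17% of the 454 rows tested after summing. It had a log2 fold change of -0.59 ± 0.22 (SE; 95% interval -1.11 to -0.08; edgeR unadjusted p = 0.029, adjusted p = 0.66), and 0.22% of these rows passed. The miR-205 sum was 109 ± 13.6 and 91.3 ± 17.3 CPM, with a log2 fold change of -0.26 ± 0.25 (95% interval -0.83 to 0.32; edgeR adjusted p = 0.81). In heat replicate 1 the miR-205 sum was 109 CPM, close to the control mean, although its miR-205b-5p was the lowest of all fish. Summed over paralogs, miR-205 ranged from 74.4 to 119 CPM over the 6 fish, less than either of its paralogs did in proportion.

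**Figure D5:**
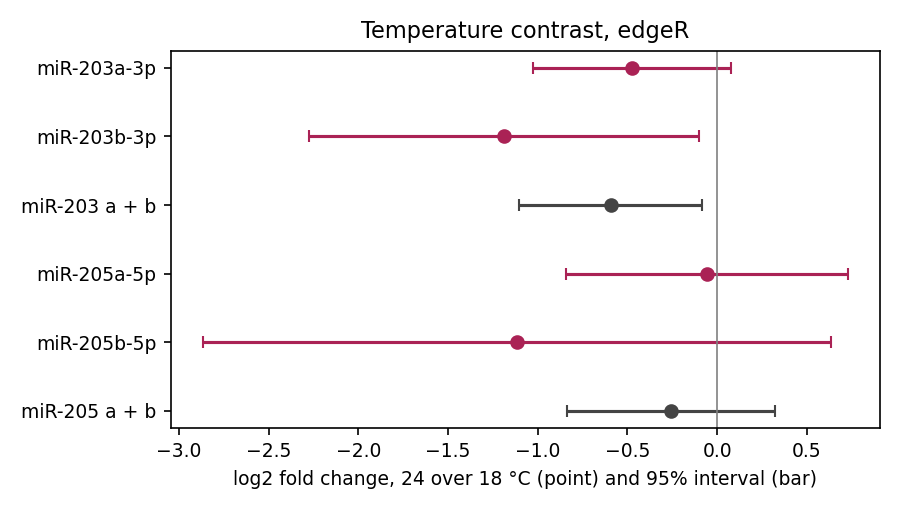
Log2 fold change (24 over 18 °C, edgeR; points) with 95% interval (bars) for each paralog and, in grey, for the sum of both paralogs. Every point lies below 0, and the intervals of the b paralogs are wider than those of the a paralogs.

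The 2 families were compared directly as the log2 ratio of the miR-203 sum to the miR-205 sum. It was 1.20, 0.98 and 1.57 in control replicates 1 to 3 and 0.89, 1.17 and 0.68 in heat replicates 1 to 3. The group means were 1.25 ± 0.301 and 0.91 ± 0.242 (SD, n = 3 each), and the groups overlapped. The difference of -0.34 was larger than either SD but did not pass (two-sided exact permutation p = 0.2; 3 against 3 cannot go below 0.1).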

How the data were processed

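Small RNA libraries were made from total head kidney RNA (TRIzol) with the NEBNext small RNA kit, per the labels' protocols. Whole-number read counts for each miRNA row are the authors' deposited values. The authors' TPM is the count over its library sum, rescaled (largest difference 2.33e-10), and was not tested. The submitters' processing notes name Bowtie, while its version, the build and the handling of reads that match several miRNAs are not stated. Sequences and positions of the miRNAs were not used here.

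Titles and design text gave the groups, with the fish as replicate. No library pair looked like a duplicate (147 to 427 chi-square units per degree of freedom). The count test was edgeR 4.0.16 under R 4.3.3 (filterByExpr with minimum count 10 and total 15; TMM over kept rows, library totals over all rows; robust quasi-likelihood fit; Benjamini-Hochberg threshold 0.05). SE is the log2 fold change over the root of F. The log2 ratio of b to a, with 0.5 added to each count, was tested with limma 3.58.1 (robust). Correlations of levels used log2(CPM + 1), and those of paralog ratios used the same log2 ratio of b to a. Permutation tests were exact, save that of the group deviations. Those of correlations shuffled fish across both temperatures. The fits were tested on simulated data. Alternatives were DESeq2 1.42.0, other scalings, filters and pseudocounts, a replicate block, and each library left out. The miRNAs, lists and tests were chosen with earlier results of these data known. The miRNAs named are all rows of both families, the tested miR-200 rows, and the 3 annotated rows most like each main paralog. The latter were sought only among rows with a mean of at least 100 CPM. No other row of the epithelial list was tested. Other miRNAs are said to be named after their values were seen.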

Additional observations from a re-analysis of the deposited data

How the results depend on the processing

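None of the 4 main paralogs, the 2 family sums or the 2 paralog ratios passed under any alternative run, and their signs held except for miR-205a-5p (log2 fold change 0.11 without control replicate 2 and 0.10 without heat replicate 2; range -0.35 to 0.11 without a library). Without a library, the log2 fold change ran from -0.69 to -0.37 for miR-203a-3p, -1.62 to -0.97 for miR-203b-3p, -1.66 to -0.68 for miR-205b-5p, -0.74 to -0.52 for the miR-203 sum and -0.42 to -0.12 for the miR-205 sum. The difference in log2 b/a ran from -1.08 to -0.21 in miR-203 and from -1.997 to -0.14 in miR-205, and that between the families from -0.47 to -0.17. The lowest adjusted p of miR-203b-3p was 0.23, without control replicate 2. Calls on the higher side over all miRNAs numbered 2 with DESeq2 (miR-499a-5p and miR-7132a-3p), 0 under the replicate block and 0 to 1 when a library was left out. On the lower side they numbered 3 with DESeq2 (novel_242, miR-7132b-5p and miR-458-3p) and 0 to 1 without a library (novel_959 without control replicate 2); these were named after their values were seen, 17 had an unadjusted p under 0.05 in edgeR, and the cause of the differences was not tested. The block changed no call of miR-203 or miR-205, and same-numbered fish did not deviate together (correlations -0.06, -0.20 and -0.17), so the numbers are not shown to pair the fish. The correlation of the 2 ratios was chosen with its alternatives after seeing the data. It was 0.91 as group deviations and 0.96 without the 2 farthest fish, and in both the miR-205 values fell into separate sets of fish. Both had a permutation p above 0.05, which for the group deviations shuffled fish across groups and was not exact. Without a library the correlation was 0.90 to 0.98 (exact permutation p = 0.05 without heat replicate 3), and fewer fish allow fewer pairings. The planned correlations of a with b within a family are not reported because the fish fell into separate sets. Of the planned pairs across families, only miR-203a-3p with miR-205b-5p had no such sets. Its r was 0.01 (exact permutation p = 0.98) and its Spearman rho 0.2 (exact permutation p = 0.71). Among the 4 main paralogs depth limits miR-205b-5p most, with 16 counts in heat replicate 1 and a counting error of 14.5%; the rarer arm miR-205a-3p has 16.6%.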
